A study of Mus musculus with 8 samples.

Results

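The pancreatic acinar cell makes digestive enzymes and packs them into zymogen granules, and its transcripts were followed here in RNA from hand-picked mouse islets. The set held 36 genes out of 55487 in the files: 7 amylase genes, 7 trypsinogens, 7 chymotrypsin and elastase genes, 2 carboxypeptidases, 6 genes of fat digestion, the nuclease Rnase1, the kallikrein Klk1, and 5 genes of the granule membrane and content. They were listed by symbol, with no threshold on their values, and all 36 were matched to an Ensembl gene. This list and the other gene lists were chosen with earlier results of these data known. The numbers of listed genes called, given below beside a background, are therefore descriptions of chosen lists. The samples were 3 of genotype Ide-/- and 5 of genotype Ide+/+. Ide encodes insulin-degrading enzyme, a zinc protease of insulin and other small peptides, and the labels do not say how the Ide-/- allele was made or in which cells it acts. All 8 samples carried the C57BL/6J background and the label female, and all mice ate a high-fat diet (D12492, 60 kcal% fat) for 2 weeks from 10 weeks of age. No group on another diet was used here, and the labels do not say how many mice gave each sample, so p-values measure the spread between samples, which may in part be technical.

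Acinar cells surround the islets and some are carried along when islets are picked from digested pancreas. They store proteases as inactive zymogens, together with enzymes that are active as made, such as amylase and triglyceride lipase. After secretion, enteropeptidase of the gut cuts trypsinogen to trypsin, which then activates the other protease zymogens and procolipase. Many of these genes are driven by PTF1, a complex of the bHLH protein PTF1A, a partner E protein and RBPJL, which binds an E-box and a nearby TC-box. Reads of near-identical copies cannot be assigned to one gene with certainty. The counts of 6 Amy2 genes, of 7 trypsinogens and of Cela3a with Cela3b were therefore summed, which left 24 measured units from the 36 genes. Transcript copies within the Amy2 group were 97.6% to 100% identical, those within the trypsinogen group 87.2% to 98.9%, and Cela3a and Cela3b 94.7%.

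The libraries held 17445976, 13237966 and 7143424 counts in Ide-/- and 19277303 to 33371662 in Ide+/+. Ide itself had 6, 7 and 4 counts in the Ide-/- libraries, against 391, 765, 572, 481 and 256 in the Ide+/+ libraries, which follows the genotype labels. Ide+/+ replicates 2 and 3 lay far closer to each other than any other pair. Over genes with at least 20 counts in a pair, the median of the squared difference over its sampling variance was 1.84 for them and 4.73 or more for the other pairs. This is still above sampling noise, so they were kept as separate samples, and results are also given with them joined. Ide+/+ replicate 1 had 692 Xist counts and 0 counts for 4 Y-linked genes. The other 7 libraries had at most 11 Xist counts and 1062 to 5447 Y-linked counts, against the label female. The nuclear RNA Malat1 took 5.65%, 5.06% and 2.13% of counts in Ide-/- libraries and 0.100% to 1.21% in Ide+/+ libraries, and mitochondrial transcripts 9.81% to 28.2% in Ide-/- and 0.512% to 9.43% in Ide+/+. The 36 genes took 1.08% to 2.62% of counts in Ide-/- and 40.7% to 75.7% in Ide+/+, which lowers every other share in Ide+/+. The Malat1 and mitochondrial shares are thus not compared apart from the enzymes. The part of depth, sex or RNA quality in the results below was not tested.

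Promoter sequence is shown for 7 of the genes as a description, and its part in the joint movement of the members was not tested. RefSeq promoters (GRCm38.p6, 250 bases before to 50 bases after each start) were matched for 30 of the 36 genes. The 7 stand for the main classes and for both ends of the proportions described below. Each is written 5′ to 3′ in the direction of its gene, and capitals mark the E-box core CACCTG and the TC-box core TTTCCC, or their reverse complements CAGGTG and GGGAAA. 
Prss2 (chr6:41521526-41521825, plus strand): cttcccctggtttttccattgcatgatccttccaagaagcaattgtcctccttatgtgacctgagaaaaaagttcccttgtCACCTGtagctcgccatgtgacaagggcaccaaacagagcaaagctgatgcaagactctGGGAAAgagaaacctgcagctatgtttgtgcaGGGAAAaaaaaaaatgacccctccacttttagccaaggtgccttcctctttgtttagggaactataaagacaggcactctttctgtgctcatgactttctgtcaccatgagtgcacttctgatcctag
Cela2a (chr4:141825956-141826255, minus strand): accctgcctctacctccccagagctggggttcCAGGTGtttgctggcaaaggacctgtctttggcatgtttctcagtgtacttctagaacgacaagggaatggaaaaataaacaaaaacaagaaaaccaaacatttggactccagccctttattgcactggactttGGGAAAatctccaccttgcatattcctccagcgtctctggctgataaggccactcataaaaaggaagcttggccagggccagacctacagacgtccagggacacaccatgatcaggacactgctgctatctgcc
Cel (chr2:28563354-28563653, minus strand): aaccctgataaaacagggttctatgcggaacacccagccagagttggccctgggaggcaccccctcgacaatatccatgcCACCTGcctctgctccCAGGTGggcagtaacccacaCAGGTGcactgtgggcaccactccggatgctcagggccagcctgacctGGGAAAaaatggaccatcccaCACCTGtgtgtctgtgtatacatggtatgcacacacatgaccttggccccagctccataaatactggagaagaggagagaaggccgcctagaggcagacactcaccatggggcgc
Cpa1 (chr6:30638968-30639267, plus strand): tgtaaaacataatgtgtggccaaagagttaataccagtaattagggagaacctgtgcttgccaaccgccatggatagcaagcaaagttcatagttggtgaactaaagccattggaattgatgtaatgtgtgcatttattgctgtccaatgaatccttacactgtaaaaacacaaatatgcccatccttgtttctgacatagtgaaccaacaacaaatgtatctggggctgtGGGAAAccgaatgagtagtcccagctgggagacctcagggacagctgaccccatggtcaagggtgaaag
Amy2a5 (chr3:113258650-113258949, minus strand): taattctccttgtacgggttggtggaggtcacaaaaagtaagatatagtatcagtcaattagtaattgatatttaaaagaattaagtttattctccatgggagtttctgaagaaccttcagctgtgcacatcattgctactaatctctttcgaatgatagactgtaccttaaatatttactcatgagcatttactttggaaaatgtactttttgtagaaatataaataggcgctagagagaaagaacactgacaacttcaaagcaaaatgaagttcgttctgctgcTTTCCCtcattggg
Amy1 (chr3:113577701-113578000, minus strand): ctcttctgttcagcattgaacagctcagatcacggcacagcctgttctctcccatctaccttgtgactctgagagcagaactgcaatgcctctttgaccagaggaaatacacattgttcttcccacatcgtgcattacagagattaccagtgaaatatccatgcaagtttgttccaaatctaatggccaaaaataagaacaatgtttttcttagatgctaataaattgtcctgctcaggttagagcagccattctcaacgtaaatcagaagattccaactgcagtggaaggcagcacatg
Gp2 (chr7:119459223-119459522, minus strand): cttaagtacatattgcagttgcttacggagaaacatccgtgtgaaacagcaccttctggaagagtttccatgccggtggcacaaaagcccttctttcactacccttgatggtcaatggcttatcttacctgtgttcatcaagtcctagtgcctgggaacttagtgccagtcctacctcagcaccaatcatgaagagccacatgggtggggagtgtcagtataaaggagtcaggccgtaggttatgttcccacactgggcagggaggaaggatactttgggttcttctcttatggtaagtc
The E-box core, searched on both strands, stood in 16 of the 30 promoters (53.3%), against 20.03% of all 27025 RefSeq promoters of the same length. The TC-box core stood in 10 (33.3%), against 25.2% of all. Both stood in 7 (23.3%), namely Amy2b, Cela1, Cela2a, Cela3a, Prss1, Prss2 and Cel, against 4.88% of all. No distance between the cores was required, so this is not a count of whole PTF1 sites. TATAAA, the TATA-box core, stood in 12 (40.0%), against 14.2% of all. Of the matches in these 30 windows, 0 overlapped a match of another motif. In Prss2 the E-box core began at base −169 and the nearest TC-box core at −110, with the start base as 0. Neither core was found in the windows of Gp2 and Amy1, which describes these letters only. Some copies share their promoter sequence (Amy2a2, Amy2a3 and Amy2a4 were 100% identical over 300 bases), so the 30 windows are not independent.

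Digestive enzyme transcripts made up 0.681%, 1.55% and 1.52% of all TPM (transcript abundance per length and library) in the 3 Ide-/- libraries, against 68.4%, 32.0%, 32.3%, 55.0% and 60.8% in the 5 Ide+/+ libraries. As shares of counts they took 1.08%, 2.52% and 2.62% in Ide-/- and 75.7%, 40.7%, 41.1%, 64.2% and 69.3% in Ide+/+. No Ide-/- library came near the lowest Ide+/+ library, and within Ide+/+ replicate 1 was highest and replicates 2 and 3 lowest. In edgeR's quasi-likelihood test with TMM scaling and Benjamini-Hochberg adjustment over all 16254 units, 24 of 24 fell in Ide-/- islets, beside a background of 10.6% of all units called lower. Their median log2 fold change was −6.36, with a range of −7.35 (Gp2) to −4.82 (Amy1), beside a median of −0.01 for all tested. With Ide+/+ replicates 2 and 3 summed to 1 sample, all 24 were again called, with a median of −6.59. Without summing the copies, 36 of 36 genes fell, again beside 10.6% called lower. Of these, Cela3a, Prss1 and Gm10334 had under 10 counts in an Ide-/- library and passed the filter on low counts through their Ide+/+ values. In bulk RNA, fewer acinar cells and less enzyme RNA per cell cannot be told apart.

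**Figure D1:**
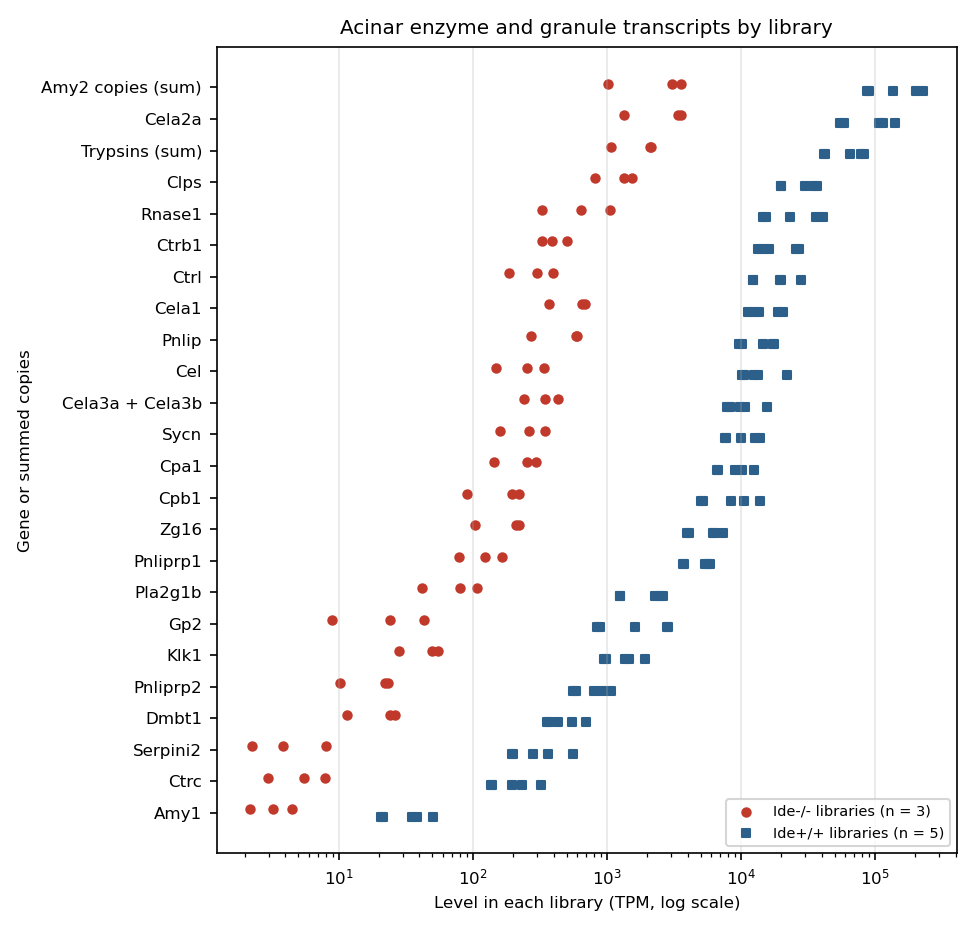
Level of each of the 24 units (rows, ordered by Ide+/+ mean) in each library, in TPM on a log axis. Red circles are the 3 Ide-/- libraries and blue squares the 5 Ide+/+ libraries. For every row all Ide-/- points lie left of all Ide+/+ points, and the order of the rows runs alike in both genotypes.

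The proportions between enzymes were then asked of each library apart from the overall level. For this, each unit's count was divided by that of the typical enzyme of the same library, a size factor taken as the median of ratios over the 24 units. On the TMM scale that typical enzyme stood at −7.04, −5.83 and −5.62 log2 in the Ide-/- libraries, with the Ide+/+ mean set at 0, and at 1.13, −1.10, −1.05, 0.44 and 0.58 in the Ide+/+ libraries. It was thus 71.5-fold lower in Ide-/- on average (mean difference −6.16 on the log2 scale, SD 0.77 in Ide-/- with n = 3 and 1.01 in Ide+/+ with n = 5). Within Ide+/+ the level alone spanned 4.70-fold and within Ide-/- 2.67-fold. The proportions moved much less than the level. The median SD of a unit across libraries was 0.74 log2 in Ide-/- and 1.01 in Ide+/+ on the TMM scale, and 0.21 in Ide-/- and 0.23 in Ide+/+ against the typical enzyme. Over all 16254 units the same step did the reverse, with median SDs of 0.25 in Ide-/- and 0.43 in Ide+/+ on the TMM scale and 0.80 and 1.02 against the typical enzyme. Both outcomes follow in part from the scale. It is a median over the same 24 units, and dividing other units by it adds its own spread between libraries. The SDs are therefore a description and not a test of constant proportions.

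The rank order of the 24 units by TPM was nearly the same in every library. Spearman's rho across units was 0.992 to 0.996 between pairs of Ide-/- libraries, 0.972 to 0.999 between Ide+/+ libraries and 0.940 to 0.988 between one library of each genotype. These are descriptions across genes, which are not replicates. The median absolute log2 difference in proportion was 0.18 to 0.25 for the 3 Ide-/- pairs, 0.04 to 0.33 for the 10 Ide+/+ pairs and 0.11 to 0.59 for the 15 pairs across genotypes. Without the close pair of Ide+/+ replicates 2 and 3, the other Ide+/+ pairs ran from 0.12. The pairs across genotypes therefore overlapped those within a genotype.

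Against the typical enzyme, the 24 units differed between genotypes by −0.97 (Gp2) to 1.69 (Amy1) on the log2 scale. Of them, 16 lay within 0.5 log2 units and 23 within 1. The edgeR fit on this scale called 1 of 24, Amy1 (adjusted p = 0.034), a call lost with an Ide-/- library or Ide+/+ replicate 2, 3 or 4 left out (adjusted p = 0.052 to 0.084) and with replicates 2 and 3 summed (0.058). The background there was 99.1% of all units called, since nearly every other transcript differs from the enzymes, and the fit borrows its spread from those units (median SE of the 24 units 0.74). An exact permutation test over libraries, two-sided and chosen after seeing the data, was therefore run for each unit (24 tests, not adjusted, 56 splits, smallest possible p = 0.0179). It gave p under 0.05 for 11 of 24, of which 6 were lower and 5 higher in Ide-/-, beside 99.1% of all units by the same exact permutation test (a count of 0 set to 0.5). With Ide+/+ replicates 2 and 3 averaged to 1 sample the exact permutation test (35 splits, smallest possible p = 0.0286) gave 5, namely Amy1, Ctrl, Pnlip, Pnliprp2 and Clps, all at that smallest p, beside 98.3% of all units. Because the scale is a median over the units, some must lie above it and some below.

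**Figure D2:**
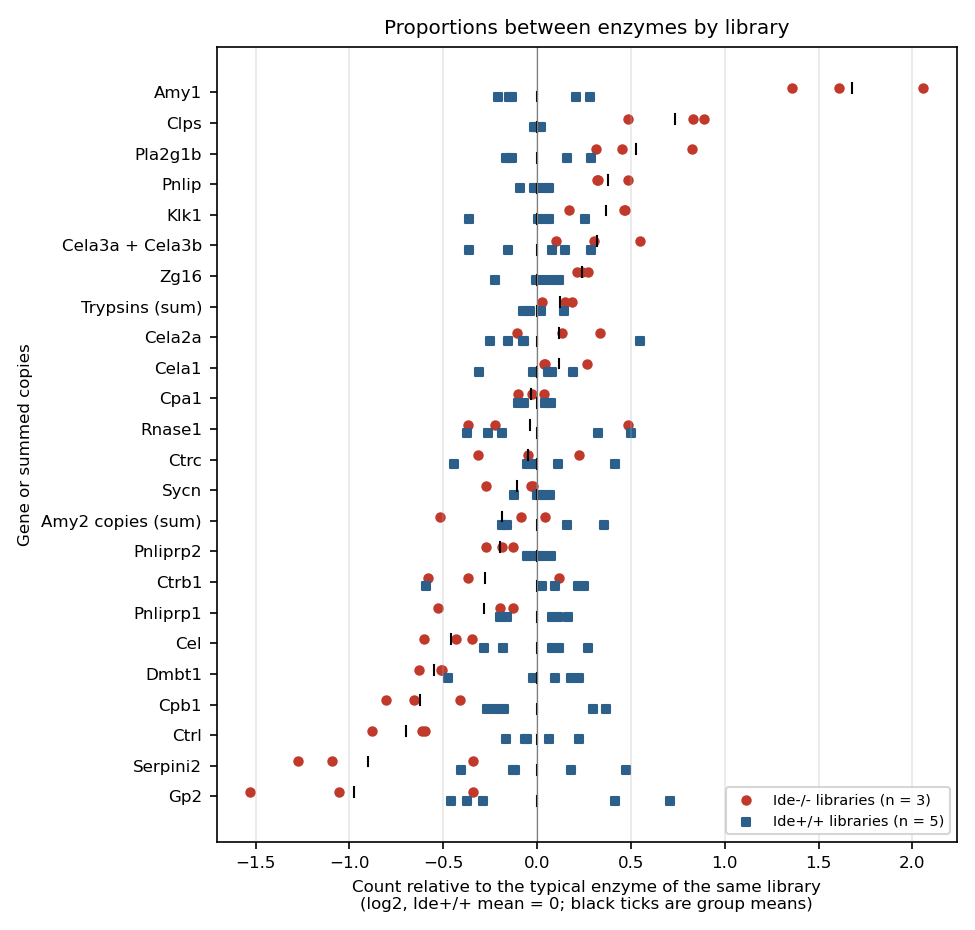
Count of each unit against the typical enzyme of the same library, on a log2 axis with the Ide+/+ mean at 0. Red circles are the 3 Ide-/- libraries, blue squares the 5 Ide+/+ libraries and black ticks the group means. The genotypes do not overlap for 10 of the 24 rows, among them Amy1 and Clps at the top and Ctrl and Cpb1 near the bottom, and Gp2 has the widest spread in both.

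The values of the genotypes did not overlap on this scale for 10 of 24 units, beside 98.3% of all units tested. Of the 10, 5 lay lower in Ide-/- (Ctrl, Cpb1, Dmbt1, Cel and Pnliprp2) and 5 higher (Zg16, Pnlip, Pla2g1b, Clps and Amy1). The count stayed between 10 and 14 when any 1 library was left out. On the TMM scale, where the level itself counts, the genotypes did not overlap for 24 of 24, beside 33.0% of all units.

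Amylase, which cleaves starch, was the most abundant unit in Ide+/+ libraries by mean TPM, while in Ide-/- libraries the elastase Cela2a averaged 2760 TPM and Amy2 2565 TPM. The summed Amy2 genes had 1018, 3591 and 3085 TPM in the Ide-/- libraries, against 229234, 87232, 90416, 136715 and 201373 TPM in the Ide+/+ libraries (log2 fold change −6.49, SE 1.28, adjusted p = 0.0056). The Ide-/- values lay far below the lowest Ide+/+ value. Relative to the typical enzyme Amy2 stood at −0.52, −0.09 and 0.04 in Ide-/- and at 0.16, −0.16, −0.17, −0.19 and 0.36 in Ide+/+, overlapping ranges (exact permutation p = 0.34). The same was seen in its share of all enzyme counts, 41.5% ± 4.19 in Ide-/- (SD, n = 3) and 44.9% ± 2.45 in Ide+/+ (SD, n = 5). Per unit length the picture differed, since Amy2 took 19.5% ± 4.17 of enzyme TPM in Ide-/- and 29.3% ± 3.82 in Ide+/+. The 2 scales part because the short copy Amy2a1 was given a larger part of the counts in Ide+/+, as described below.

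Amy1, the salivary-type amylase gene (ENSMUSG00000074264, GRCm38 chromosome 3, 113555710 to 113606699, minus strand), was the rarest of the 24 units in the Ide+/+ libraries. It had 2.19, 3.26 and 4.49 TPM in Ide-/-, against 50.8, 20.7, 21.3, 35.4 and 38.3 TPM in Ide+/+. All Ide-/- values were lower, by the smallest fold of the set (28.3-fold, log2 fold change −4.82, SE 0.69, adjusted p = 0.0011). Its proportion was therefore high in Ide-/-, at 2.06, 1.36 and 1.61, and at 0.28, −0.15, −0.13, −0.21 and 0.21 in Ide+/+. The exact permutation test gave its smallest possible p, 0.0179. Its counts were 83.8, 81.8 and 50.2 in Ide-/- and 917 to 1961 in Ide+/+. Its transcript is 84.4% to 89.5% identical to those of the Amy2 genes, and how reads were shared between them was not tested.

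**Figure D3:**
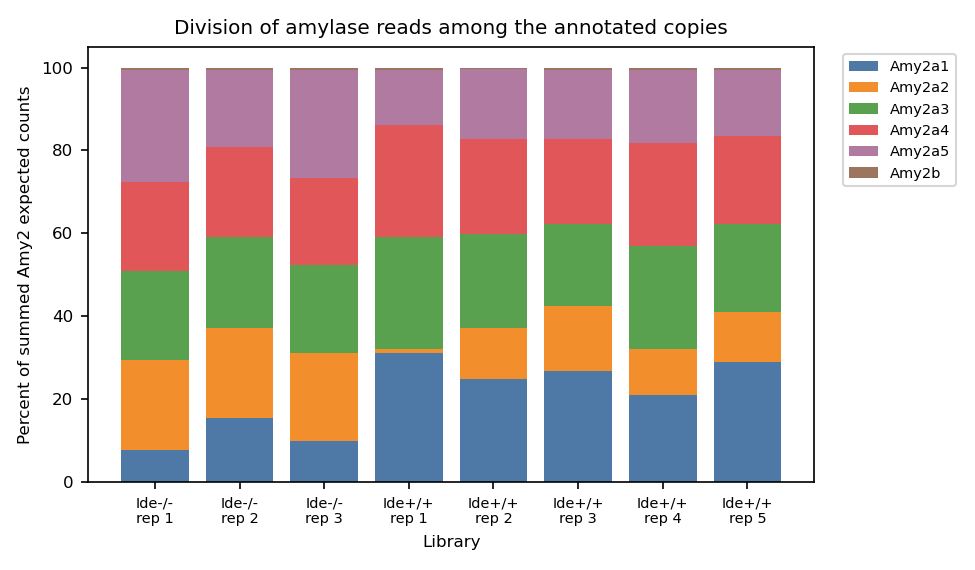
Share of the summed Amy2 counts given to each annotated copy, per library, in percent, with the 3 Ide-/- libraries on the left and the 5 Ide+/+ libraries on the right. Amy2a1 has 7.77% to 15.3% in Ide-/- and 20.96% to 31.2% in Ide+/+, and Amy2a2 has 0.963% in Ide+/+ replicate 1.

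The deposited files divided amylase reads among copies in ways that the sequences cannot settle. Amy2a2, Amy2a3 and Amy2a4 have identical transcripts in the GENCODE annotation. They were given equal parts in each Ide-/- library (21.6%, 21.8% and 21.2% of Amy2 counts each). In Ide+/+ replicate 1 they had 0.963%, 27.0% and 27.1%. Amy2a1 took 7.77%, 15.3% and 9.78% in Ide-/-, against 31.2%, 24.7%, 26.8%, 20.96% and 29.0% in Ide+/+. Its annotated transcript is short, 890 bases against 3717 for Amy2a2, so each of its reads weighs more in TPM. Amy2b, annotated as an unprocessed pseudogene, had 0.435% to 0.605% in all libraries.

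Trypsinogens, from 7 genes of chromosome 6, made up the third most abundant unit in Ide+/+ libraries. Their sum had 1070, 2110 and 2133 TPM in Ide-/-, against 78868, 42105, 41414, 82676 and 65407 TPM in Ide+/+ (log2 fold change −6.20, SE 0.996, adjusted p = 0.0020). Against the typical enzyme the sum overlapped between genotypes, at 0.15, 0.03 and 0.18 in Ide-/- and −0.04, −0.05, −0.07, 0.14 and 0.02 in Ide+/+ (exact permutation p = 0.11). Prss2, the anionic trypsinogen, supplied 53.7%, 57.9% and 51.7% of the trypsinogen counts in Ide-/- and 55.6% to 63.2% in Ide+/+. Try4 supplied 25.1% to 32.6% in Ide-/- and 19.3% to 29.9% in Ide+/+, and Try5 15.04% to 16.4% in Ide-/- and 12.4% to 17.6% in Ide+/+. The transcripts of Try4 and Try5 are 97.1% identical, so the division of reads between them is uncertain. Prss1, Prss3, Try10 and Gm10334 each stayed under 1% in every library, and Prss1 had at most 1.27 counts in an Ide-/- library.

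**Figure D4:**
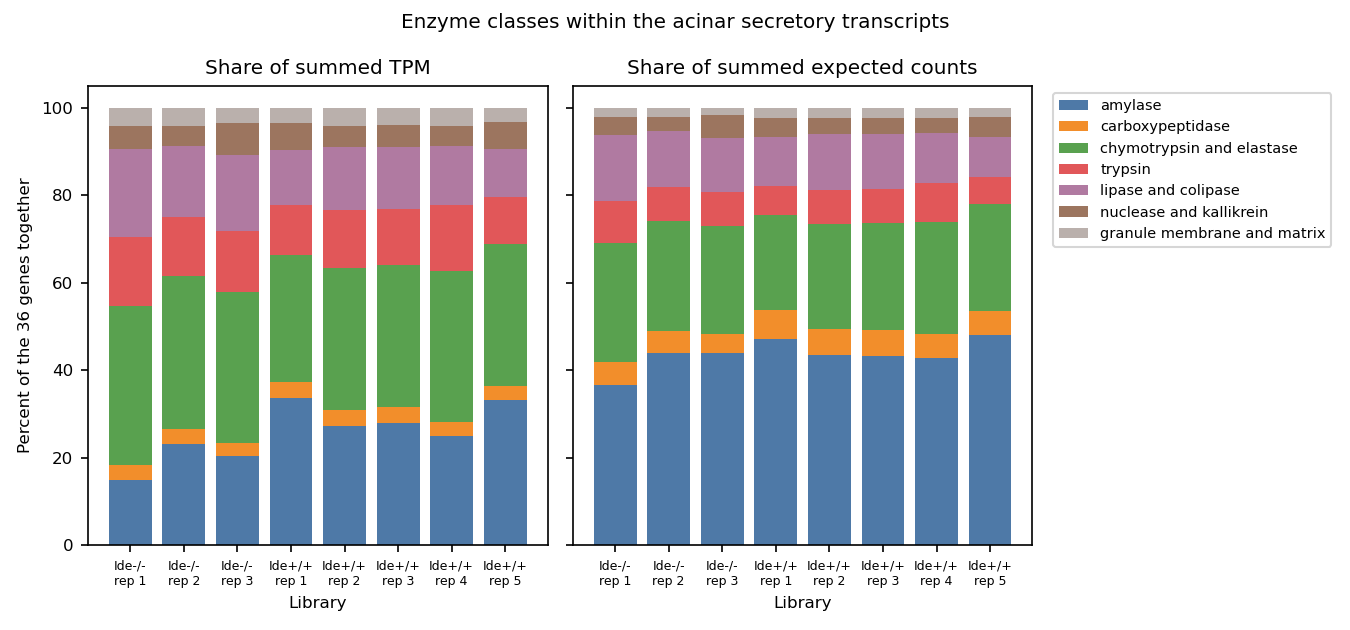
Share of each enzyme class among the 36 genes, in percent of summed TPM (left panel) and of summed expected counts (right panel), with the 3 Ide-/- libraries left of the 5 Ide+/+ libraries in each panel. The amylase share is lower in Ide-/- on the TPM side (14.97% to 23.2%, against 24.8% to 33.5% in Ide+/+) and overlaps between genotypes on the count side.

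Chymotrypsins and elastases, serine proteases that trypsin activates, took 35.3% ± 0.91 of enzyme TPM in Ide-/- (SD, n = 3) and 32.1% ± 2.00 in Ide+/+ (SD, n = 5), and 25.7% ± 1.35 and 24.1% ± 1.44 of enzyme counts in Ide-/- and Ide+/+. The TPM total includes Amy2, which took a mean of 19.5% in Ide-/- and 29.3% in Ide+/+. A lower Amy2 share raises the TPM shares of all other classes in Ide-/-. Whether this class differs apart from amylase was not tested. Cela2a, an elastase, led with 1342, 3398 and 3542 TPM in Ide-/-, against 114076, 54706, 58454, 106261 and 140012 TPM in Ide+/+. Its log2 fold change was −6.20 (SE 1.13, adjusted p = 0.0039). Its place against the typical enzyme overlapped, at −0.11, 0.13 and 0.33 in Ide-/- and −0.08, −0.25, −0.15, −0.07 and 0.55 in Ide+/+, where replicate 5 stood apart. Ctrc, chymotrypsin C, lies on the minus strand of chromosome 4 as Cela2a does, and both gene models have their 3′ end at the same base (141814962), so that the model of Ctrc spans that of Cela2a. The level of Ctrc, 2.99 to 7.86 TPM in Ide-/- and 136 to 322 TPM in Ide+/+, is therefore uncertain. Summed Cela3 had 241, 435 and 343 TPM in Ide-/-, against 10766, 8240, 7871, 15551 and 9912 TPM in Ide+/+ (log2 fold change −5.97, SE 0.78, adjusted p = 0.00078). Nearly all of its counts were Cela3b, with Cela3a listed at 0 counts in each Ide-/- library and 72.2 to 121 in Ide+/+.

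Ctrl, a chymotrypsin-like protease, was the member of this class whose proportion passed an unadjusted 0.05 in the exact permutation test. It had 188, 398 and 301 TPM in Ide-/-, against 27893, 12367, 12299, 19617 and 19862 TPM in Ide+/+ (log2 fold change −7.08, SE 0.97, adjusted p = 0.00092). Against the typical enzyme it stood at −0.60, −0.62 and −0.88 in Ide-/- and 0.22, −0.05, −0.06, −0.17 and 0.06 in Ide+/+, again at the smallest p that the exact permutation test allows, 0.0179. The genotypes did not overlap and each was tight, with SDs of 0.16 and 0.15. Ctrb1, chymotrypsinogen B, had 328, 503 and 393 TPM in Ide-/-, against 25916, 16238, 14644, 27300 and 13434 TPM in Ide+/+ (log2 fold change −6.63, SE 0.86, adjusted p = 0.00076). Its proportion varied most within Ide+/+ as a share of enzyme TPM, with a coefficient of variation of 28.6% and its low value, 2.21%, in replicate 5. Cela1, another elastase, ran from 372 to 689 TPM in Ide-/- and from 11372 to 20586 TPM in Ide+/+, and its counts against the typical enzyme overlapped. Its share of enzyme TPM did not overlap, at 4.32% to 5.46% in Ide-/- and 2.22% to 3.85% in Ide+/+. The effective length given with the data for Cela1 was shorter in Ide-/- (670 to 703 bases) than in Ide+/+ (854 to 957 bases).

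The carboxypeptidases trim amino acids from the C-terminal end of peptides. Cpa1 had 143, 295 and 253 TPM in Ide-/-, against 12544, 6744, 6587, 10195 and 9047 TPM in Ide+/+ (log2 fold change −6.34, SE 0.89, adjusted p = 0.0010). It kept close to the typical enzyme, with a mean of −0.03 ± 0.07 in Ide-/- (SD, n = 3) and an SD of 0.08 in Ide+/+ (n = 5, exact permutation p = 0.625). Cpb1 had 90.6, 222 and 197 TPM in Ide-/-, against 13904, 5013, 5174, 8464 and 10576 TPM in Ide+/+ (log2 fold change −7.02, SE 1.08, adjusted p = 0.0016). Its proportion was lower in each Ide-/- library, at −0.80, −0.41 and −0.66, than in any Ide+/+ library, at 0.37, −0.22, −0.18, −0.27 and 0.30 (exact permutation p = 0.0357). With Ide+/+ replicates 2 and 3 averaged the exact permutation p was 0.057.

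The share of fat digestion genes in enzyme TPM separated the genotypes with Clps counted and overlapped without it, and the members lay on both sides of the typical enzyme. Together the 6 genes took 20.1%, 16.3% and 17.3% of enzyme TPM in Ide-/-, against 12.5%, 14.4%, 14.1%, 13.6% and 10.9% in Ide+/+, and the genotypes did not overlap. Clps took 12.03%, 8.59% and 10.1% in Ide-/-, against 5.39%, 6.22%, 6.18%, 6.33% and 4.96% in Ide+/+. Without Clps the other 5 genes took 8.11%, 7.66% and 7.28% in Ide-/-, against 7.10%, 8.21%, 7.88%, 7.28% and 5.97% in Ide+/+, which overlap. No test was run on these shares. Their total includes Amy2, with a mean TPM share of 19.5% in Ide-/- and 29.3% in Ide+/+, which raises the other TPM shares in Ide-/-. In counts, where long transcripts weigh more, the shares overlapped, at 12.2% to 15.2% in Ide-/- and 9.23% to 12.8% in Ide+/+. Clps, colipase, anchors pancreatic lipase to fat droplets in the presence of bile salts. It had 819, 1333 and 1527 TPM in Ide-/-, against 36870, 19922, 19976, 34825 and 30124 TPM in Ide+/+ (log2 fold change −5.58, SE 0.86, adjusted p = 0.0017). Its proportion was high in Ide-/-, at 0.89, 0.49 and 0.83, and nearly fixed in Ide+/+, at −0.02, −0.01, −0.01, 0.02 and 0.02 (the smallest exact permutation p, 0.0179). A unit that lies near the median setting the scale has a small SD by construction.

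Pnlip, the main triglyceride lipase, which Clps serves, shifted the same way. It had 273, 584 and 596 TPM in Ide-/-, against 17311, 10160, 9752, 17669 and 14630 TPM in Ide+/+ (log2 fold change −5.89, SE 0.90, adjusted p = 0.0016). Its proportions were 0.33, 0.32 and 0.49 in Ide-/- and between −0.09 and 0.06 in Ide+/+ (the smallest exact permutation p, 0.0179). Pla2g1b, the secreted phospholipase A2, had 42.0, 79.8 and 108 TPM in Ide-/-, against 2289, 1259, 1248, 2620 and 2495 TPM in Ide+/+ (log2 fold change −5.76, SE 0.78, adjusted p = 0.00088). It stood at 0.45, 0.31 and 0.82 in Ide-/- and at −0.16, −0.13, −0.15, 0.16 and 0.29 in Ide+/+, with only a narrow gap between the genotypes (exact permutation p = 0.0357). Cel, the bile salt-activated lipase, and Pnliprp2, a lipase-related protein, were named after their values were seen. Both lay lower in proportion in Ide-/-, Cel by a mean of −0.46 (exact permutation p = 0.0357) and Pnliprp2 by −0.20 (exact permutation p = 0.0179). Pnliprp1, its relative, overlapped.

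Rnase1, the pancreatic ribonuclease, varied widely in proportion within both genotypes and did not separate them. It had 330, 642 and 1054 TPM in Ide-/-, against 40714, 14534, 15336, 23075 and 36548 TPM in Ide+/+ (log2 fold change −6.37, SE 1.09, adjusted p = 0.0029). Against the typical enzyme it stood at −0.23, −0.37 and 0.49 in Ide-/- and at 0.33, −0.26, −0.19, −0.38 and 0.50 in Ide+/+ (exact permutation p = 0.84). Klk1, tissue kallikrein, a serine protease that releases kinins, had 28.1, 49.3 and 55.2 TPM in Ide-/-, against 1360, 984, 947, 1931 and 1459 TPM in Ide+/+ (log2 fold change −5.91, SE 0.71, adjusted p = 0.00057). Its proportions overlapped (exact permutation p = 0.071).

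Granule membrane and content genes included tight and loose proportions. Gp2, the main glycoprotein of the granule membrane, had 8.89, 43.4 and 24.0 TPM in Ide-/-, against 2861, 840, 889, 1624 and 2790 TPM in Ide+/+. It had the deepest fall of the set (164-fold, log2 fold change −7.35, SE 1.11, adjusted p = 0.0015). Its proportion was also the least constant, at −1.53, −0.34 and −1.06 in Ide-/- and 0.41, −0.46, −0.37, −0.29 and 0.71 in Ide+/+, so that the mean difference of −0.98 was within the spread (exact permutation p = 0.11). Serpini2, a serine protease inhibitor, had 2.24, 8.08 and 3.86 TPM in Ide-/-, against 557, 199, 197, 280 and 362 TPM in Ide+/+ (log2 fold change −7.27, SE 0.91, adjusted p = 0.00064). It stood at −1.09, −0.34 and −1.27 in Ide-/- and between −0.41 and 0.47 in Ide+/+, where one Ide-/- library overlapped (exact permutation p = 0.0357). In both genes Ide-/- replicate 2 was the high library.

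Zg16, a lectin of the granule content, had 105, 221 and 209 TPM in Ide-/-, against 6296, 4077, 3957, 7382 and 6216 TPM in Ide+/+ (log2 fold change −6.03, SE 0.78, adjusted p = 0.00072). Its proportions were 0.24, 0.21 and 0.27 in Ide-/- and between −0.22 and 0.11 in Ide+/+ (exact permutation p = 0.0357). Sycn, syncollin, a protein of the inner granule membrane, had 160, 346 and 262 TPM in Ide-/-, against 13770, 7788, 7610, 12834 and 10072 TPM in Ide+/+ (log2 fold change −6.41, SE 0.81, adjusted p = 0.00065), and its proportions overlapped (exact permutation p = 0.20). Dmbt1, a scavenger receptor glycoprotein, gave opposite answers by unit and was named after its values were seen. Its counts against the typical enzyme were lower in Ide-/- (mean −0.55, exact permutation p = 0.0357), while its share of enzyme TPM was higher, 0.166% ± 0.0055 in Ide-/- (SD, n = 3) and 0.101% ± 0.024 in Ide+/+ (SD, n = 5). The effective length that the authors' files give for Dmbt1 was 1369 to 1591 bases in Ide-/- and 2882 to 4322 bases in Ide+/+, which turns the count into a higher TPM.

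As shares of summed enzyme TPM, the median coefficient of variation of a unit was 15.7% in Ide-/- and 14.4% in Ide+/+. Counting error alone gives a median of 1.65% in Ide-/- and 0.200% in Ide+/+, so the median variation lies above it, and this covers counting error only. The share of Pnliprp2 varied least in Ide-/- (1.88%) and that of Gp2 most (42.0%). Counting error alone gives 4.96% for Pnliprp2 there, so its low value does not show a steadier gene. Dmbt1 in Ide-/- (3.29%) also lay below its counting error (4.64%). In Ide+/+ the range ran from Amy1 (6.79%) to Ctrb1 (28.6%). Within Ide+/+, replicates 1 and 5 were both highest against the typical enzyme for 7 of 24 units (Amy1, Amy2, Cpb1, Ctrl, Rnase1, Gp2 and Serpini2) and both lowest for 4 (Cela1, Cela3, Ctrb1 and Sycn). This grouping was noticed in the data and was not tested.

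Other acinar secretory genes, from a list that shares none with the 36, moved with them in part. Of 22 tested, 14 fell and 1 rose, with a median log2 fold change of −4.19, beside backgrounds of 10.6% lower and 10.5% higher. Of the 22, Tmed11, Slc38a3, Galnt3, Aqp8 and Aqp12 had under 10 counts in at least 1 Ide-/- library, and Slc38a3 in every one, so the count and median are a description only. The 4 with the smallest p were Aqp12, Cckar, Erp27 and Tmed6. Aqp12, an acinar aquaporin, had 0.585, 0.773 and 0.458 TMM-scaled CPM in Ide-/-, against 133, 38.3, 34.9, 101 and 72.9 CPM in Ide+/+ (log2 fold change −6.92, SE 0.59, adjusted p = 0.00020). Cckar, the receptor for cholecystokinin, the gut hormone that triggers enzyme secretion, had 0.947, 2.11 and 1.56 CPM in Ide-/-, against 312, 66.9, 64.7, 171 and 149.97 CPM in Ide+/+ (log2 fold change −6.65). Erp27, which encodes a protein of the endoplasmic reticulum, had 2.26, 3.78 and 4.03 CPM in Ide-/-, against 457, 106, 108, 323 and 324 CPM in Ide+/+ (log2 fold change −6.31). Tmed6, a p24-type cargo receptor gene, had 3.84, 6.02 and 5.86 CPM in Ide-/-, against 459, 91.9, 97.8, 267 and 326 CPM in Ide+/+ (log2 fold change −5.57). For each of the 4 genes all Ide-/- values lay far below all Ide+/+ values, a gap that choice by smallest p favours. The 7 genes not called had smaller changes. They were Rab3d (log2 fold change −0.92), Vamp8 (−0.63), Itpr3 (−0.46), Stxbp2 (−0.13), Ccl6 (−0.10), Vamp2 (0.24) and Chrm3 (0.74). Syt7, a calcium sensor of exocytosis that endocrine cells also use, rose, with 35.9, 35.3 and 39.6 CPM in Ide-/- and 15.8 to 26.7 CPM in Ide+/+ (log2 fold change 0.86, adjusted p = 0.014). That call was lost without Ide-/- replicate 2 (edgeR adjusted p = 0.051), without Ide-/- replicate 3 (0.062) and with the replicate number as a block (0.105).

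Of 6 acinar transcription factor genes tested 5 fell, beside the same 10.6%. Among them Ptf1a and Gata4 had under 10 counts in every Ide-/- library and passed the filter on low counts through their Ide+/+ values, so that they had to differ. Rbpjl, Nr5a2 (log2 fold change −3.48) and Bhlha15 (−1.28) were the other 3 that fell. Ptf1a, which with Rbpjl forms the PTF1 complex, had 1, 5 and 0 counts in Ide-/-, against 158 to 398 counts in Ide+/+, or 0.028, 0.203 and 0 CPM in Ide-/-, against 39.9, 6.49, 8.07, 15.6 and 17.0 CPM in Ide+/+. Rbpjl had 1.59, 3.38 and 1.01 CPM in Ide-/-, against 112, 63.9, 58.1, 149 and 85.9 CPM in Ide+/+ (log2 fold change −5.51, SE 0.50, adjusted p = 0.00022). Of the Reg genes, secreted lectins that acinar cells make, Reg1 (log2 fold change −6.10), Reg2 (−7.19), Reg3b (−7.08) and Reg3d (−6.26) fell. Reg3a and Reg3g were also called lower, but had under 10 counts in every Ide-/- library and likewise passed through their Ide+/+ values.

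Markers of other cells moved beside the enzymes in part. In the edgeR fit 6 of 8 duct markers and 5 of 6 macrophage markers were lower, beside backgrounds of 10.6% of all units lower and 10.5% higher. Of these markers, Onecut1 and Cx3cr1 had under 10 counts in every Ide-/- library, and Cftr, Muc1 and Adgre1 in at least 1. The marker counts are therefore a description only. The 8 beta and 4 alpha markers were not called (smallest unadjusted p = 0.069), nor were the 5 endothelial markers. Of 3 delta and PP markers the somatostatin gene Sst was higher, with 2636, 6682 and 4627 CPM in Ide-/-, against 2059, 2216, 2258, 1089 and 1463 CPM in Ide+/+ (log2 fold change 1.35, adjusted p = 0.046). The call on Sst was lost with any 1 of Ide+/+ replicates 2 to 5 or Ide-/- replicates 2 and 3 left out (edgeR adjusted p = 0.055 to 0.222). Of 6 stellate and fibroblast markers the smooth muscle actin gene Acta2 was lower, with 7.80, 8.09 and 9.53 CPM in Ide-/-, against 13.5, 15.2, 14.6, 13.2 and 13.96 CPM in Ide+/+ (log2 fold change −0.74, adjusted p = 0.011). Its call was lost without Ide-/- replicate 1 (edgeR adjusted p = 0.059) or 2 (0.063), and its direction turned with total-count scaling (0.46) and on log2(TPM + 1) (0.12), neither called. The summed TPM of a marker list is part of a fixed total per library. Enzymes held 0.681% to 1.55% of that total in Ide-/- and 32.0% to 68.4% in Ide+/+, so such sums do not compare markers apart from the enzymes. Summed duct markers ranged from 133 to 156 TPM in Ide-/- and 78.2 to 408 TPM in Ide+/+, and macrophage markers from 23.95 to 30.5 TPM in Ide-/- and 24.8 to 91.5 TPM in Ide+/+. Summed beta markers ranged from 237224 to 392447 TPM in Ide-/- and 46173 to 179874 TPM in Ide+/+, and delta and PP markers from 34886 to 48477 TPM in Ide-/- and 4328 to 26108 TPM in Ide+/+. Endothelial markers ranged from 50.2 to 73.4 TPM in Ide-/- and 8.44 to 89.5 TPM in Ide+/+, and stellate and fibroblast markers from 23.7 to 32.9 TPM in Ide-/- and 6.02 to 30.1 TPM in Ide+/+. No marker of these cells was at 0 in a library, and Ptf1a was at 0 in Ide-/- replicate 3. Their part in the enzyme results was not tested.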

How the data were processed

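RNA of 8 samples was sequenced from NEBNext low-input libraries of 100 ng RNA (RIN over 6.5). Per the submitters' processing notes, reads were processed with STAR 2.7.1a and RSEM 1.3.1 on GRCm38. For the annotation release and strand setting, nothing is given in the sources used here. The authors deposited, per gene, RSEM expected counts, TPM and an effective length. Expected counts were rounded. Of 55487 gene IDs 55141 had a symbol in the reference table.

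The 36 members and all gene lists were chosen with earlier results of these data known. Near-identical copies were summed. Genes passing filterByExpr (minimum count 10) were tested with edgeR 4.0.16 (quasi-likelihood, robust, TMM), limma 3.58.1 and DESeq2 1.42.0 being alternatives, in R 4.3.3; calls are Benjamini-Hochberg adjusted p under 0.05 over all units tested. A second fit used a median-of-ratios size factor of the members as library size. CPM are TMM-scaled. The median SDs of log2 levels carry a prior count of 2, and the proportions given per library carry none. TPM shares have no test. Values in every library are given for summed units, the 2 most abundant units of each class, the 3 highest and 3 lowest in proportion, Ide, and the 4 other acinar genes with the smallest p. The fits were run on simulated counts. For the main fit these held smaller changes than the fall of the enzymes, so its behaviour at such a fall was not tested. Counts are of reads without molecular identifiers.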

Additional observations from a re-analysis of the deposited data

Results flagged for a closer look

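Of 38 groups of values checked for a sample far from the others, 1 stood out, and chance marks about 1 in 20. The share of Amy1 in the summed enzyme TPM was 0.00743% in Ide+/+ replicate 1, the highest of the 5 Ide+/+ libraries, which otherwise lay between 0.00630% and 0.00660%. Its gap to the nearest library took 0.734 of the whole range, above the limit of 0.71 for 5 samples. The Ide-/- libraries lay higher, at 0.0321%, 0.0210% and 0.0296%.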

How the results depend on the processing

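All 24 units were called lower in Ide-/- under each alternative run, with 1 exception: with the replicate number as a block 22 were called, and Amy2 (log2 fold change −5.72, adjusted p = 0.092) and Cela2a (−5.36, adjusted p = 0.070) missed the threshold. The alternatives were DESeq2 size factors, total counts, islet granule genes, no filter on low counts, the DESeq2 test, limma-voom, log2(TPM + 1), each library left out, and Ide+/+ replicates 2 and 3 summed, the last chosen after seeing the data. Replicate numbers were not shown to pair the samples (correlations of deviations 0.05, 0.01 and −0.09). The median of all units moved to 1.22 with total counts, 0.11 with granule genes and 0.61 with log2(TPM + 1), where the members' median was −4.81, −6.19 and −5.21, so their directions held relative to that shift. Against the typical enzyme 1 unit, Amy1, was called in the fit as reported, and 0 with the replicate block, 0 with Ide+/+ replicates 2 and 3 summed and 0 to 1 when 1 library was left out; the cause was not tested. By the exact permutation test 11 passed an unadjusted 0.05, and 5 with Ide+/+ replicates 2 and 3 averaged, both tests chosen after seeing the data, beside 99.1% and 98.3% of all units. Of the 22 other acinar genes 14 or 15 were called lower under each alternative run. The 1 called higher, Syt7, became 0 with the replicate block and without Ide-/- replicate 2 or 3, and the number called higher was 4 with total counts and 2 with log2(TPM + 1). Sst and Acta2 were not called with the replicate block (adjusted p = 0.296 and 0.076) or granule gene scaling (0.061 and 0.178), nor Sst with Ide+/+ replicates 2 and 3 summed (0.057). DESeq2 size factors were not run for the proportions, whose scale is already a median of ratios. The depth of the Ide-/- libraries limits the rarest units most: Amy1 had 50.2 to 83.8 counts there and Ctrc 49.9 to 67.0.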
